A study of Mus musculus with 16 samples.

Results

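The imprinting control regions (ICRs) of Peg3, Mest and Snrpn were examined in mouse embryonic stem cells (mESCs) and embryoid bodies (EBs), together with 10 kb of flanking sequence on each side. They were taken by name from the list of 20 ICRs that the study used, with the coordinates given there in the mouse genome build mm9, and make up 3 of its 17 maternally methylated ICRs. Methylation was measured by reduced representation bisulfite sequencing (RRBS), in which bisulfite converts unmethylated cytosines, so that a CpG's methylation is read from how many of its reads kept the cytosine. The 16 libraries came from 8 conditions with 2 replicates each, all of the E14 mESC line. YP-mESCs were E14 cells at about passage 14 and OP-mESCs were the same cells at about passage 70, both grown in serum with LIF. OP-S33Y #1 and OP-S33Y #2 were single clones, made from young-passage cells and then kept in long culture, that carry the S33Y form of β-catenin, which escapes degradation. The mESC shCtrl and mESC shβcat #1 cells were young-passage cells transduced with a control shRNA or an shRNA against β-catenin, and EB shCtrl and EB shβcat #1 were the same cells after 8 days as EBs without LIF. Each S33Y clone is 1 line, and clone and culture cannot be told apart.

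At an imprinted gene only the allele from 1 parent is expressed, and an ICR carries DNA methylation on 1 parental allele from the germline onward. Peg3 encodes a zinc finger protein, Mest a protein of the α/β hydrolase fold family and Snrpn a component of the spliceosome. At all 3 genes the maternal allele is methylated in the oocyte and the paternal allele is expressed, so a level midway between unmethylated and fully methylated is usual when reads of both alleles are pooled. In early embryos and in mESCs the zinc finger protein ZFP57 binds the hexamer TGCCGC when its CpG is methylated, and with its partner TRIM28 it protects ICRs from demethylation. The reads here do not tell the alleles apart.

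Of the CpGs in these ICRs very few were read. The Peg3 ICR (chr7:6679787-6684257) spans 4471 bp with 148 CpGs. The same 5 CpGs were covered, with at least 10 reads, in all 16 libraries, and no other CpG was covered in any of them. The Mest ICR (chr6:30684932-30689966) spans 5035 bp with 186 CpGs, of which 5 were covered in all libraries and 11 in at least 1. The Snrpn ICR (chr7:67147381-67151583) spans 4203 bp with 75 CpGs, of which 2 were covered in all libraries and 14 in at least 1. Per library this left 5 CpGs at Peg3, between 5 and 11 at Mest and between 3 and 14 at Snrpn. In the 10 kb flanks no CpG was covered at Peg3 or Snrpn, whereas the flanks of Mest held 18 covered CpGs, 5 of them in all libraries. All of the values that follow therefore describe short stretches and not whole ICRs.

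The covered CpGs lay between neighbouring CCGG sites, and the 4 stretches on which the results rest are printed here on the forward strand of mm9, 5′ to 3′. Capitals mark the covered CpGs, and coordinates count from 1.
Mest before the ICR, chr6:30682800-30682879: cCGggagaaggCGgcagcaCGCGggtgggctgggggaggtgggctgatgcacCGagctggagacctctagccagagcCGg
Mest ICR, chr6:30689253-30689335: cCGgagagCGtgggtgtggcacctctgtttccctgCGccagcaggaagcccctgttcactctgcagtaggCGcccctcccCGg
Snrpn ICR, chr7:67149465-67149538: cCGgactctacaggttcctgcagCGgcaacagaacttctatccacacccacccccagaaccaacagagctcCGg
Peg3 ICR, 30 bases with 3 of the 5 CpGs, chr7:6682973-6683002: CGgagcacagcactctaCGcacacacccCG

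The stretches differ in what the annotation (GENCODE M1, mm9) places there. The Peg3 stretch, chr7:6682972-6683040, lies in an untranslated exon region of 4 transcripts of Peg3, a gene on the minus strand whose first base is at 6683132. The Mest stretch inside the ICR lies in an intron of Mest, on the plus strand, downstream of the 5 transcript starts between 30688050 and 30688063. The Mest stretch before the ICR begins at position -2131 bp, counted from the ICR start, and lies in an intron of 2 Mest transcripts that start further upstream. The Snrpn stretch lies in an intron of Snrpn, on the minus strand, downstream of the transcript start at 67150042. Mir335, a microRNA gene inside a Mest intron, and Copg2, which encodes a coatomer subunit on the opposite strand, also fall in the Mest flanks. This annotation places no other gene in the 3 ICRs or their flanks, and other annotations were not searched.

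The hexamer TGCCGC was searched on both strands of each ICR. It occurs 8 times in the Peg3 ICR, 12 times in the Mest ICR and 10 times in the Snrpn ICR. For comparison, 21.7% of genome windows of the length of the Peg3 ICR hold at least 1. For the lengths of the Mest and Snrpn ICRs it is 23.9% and 20.6%, and for the 300-base promoters of RefSeq (GRCm38.p6) 11.6%. At least as many as in the ICR are held by 0.0124%, 0.0022% and 0.0041% of windows of the Peg3, Mest and Snrpn lengths. The windows were not matched for CpG content. Of the CpGs covered in every library, 1 in the Mest stretch before the ICR (30682811) and 1 in the Snrpn stretch (67149488) belong to such a hexamer, both on the reverse strand. Another 2 CpGs of the Snrpn ICR that do so were covered in 2 and 8 libraries. No covered CpG of the Peg3 ICR or of the Mest stretch inside the ICR does. A match of 6 letters is a description of the sequence and does not show binding.

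Depth was moderate and unequal. The libraries had between 18919219 and 40519010 reads on between 413282 and 1152971 CpGs with at least 10 reads, where a read is counted at each CpG it spans. OP-mESC replicate 2 had the fewest of both. At the 3 ICRs the best covered CpG of a library had between 24 and 73 reads at Peg3, between 37 and 87 at Mest and between 22 and 70 at Snrpn. Neighbouring CpGs of a stretch are read by the same molecules, so summing reads over CpGs overstates the number of molecules. Whether duplicate reads were removed was not found in the sources used here, and duplicates would lower the number further.

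All 3 ICRs were partly methylated in most libraries. The level of an ICR in a library is the mean percentage of its covered CpGs. At Peg3 all 16 libraries lay between 32.1% and 56.9%, with a median of 50.0%. At Mest they lay between 23.6% and 69.3% with a median of 49.8%, and at Snrpn between 25.8% and 50.1% with a median of 39.9%. Single CpGs showed the same. Over all libraries, 80 of 80 CpG values at Peg3 (100%), 92 of 100 at Mest (92%) and 95 of 100 at Snrpn (95%) lay between 20% and 80%, compared with between 13% and 22.8% of all covered CpGs of a library.

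**Figure D1:**
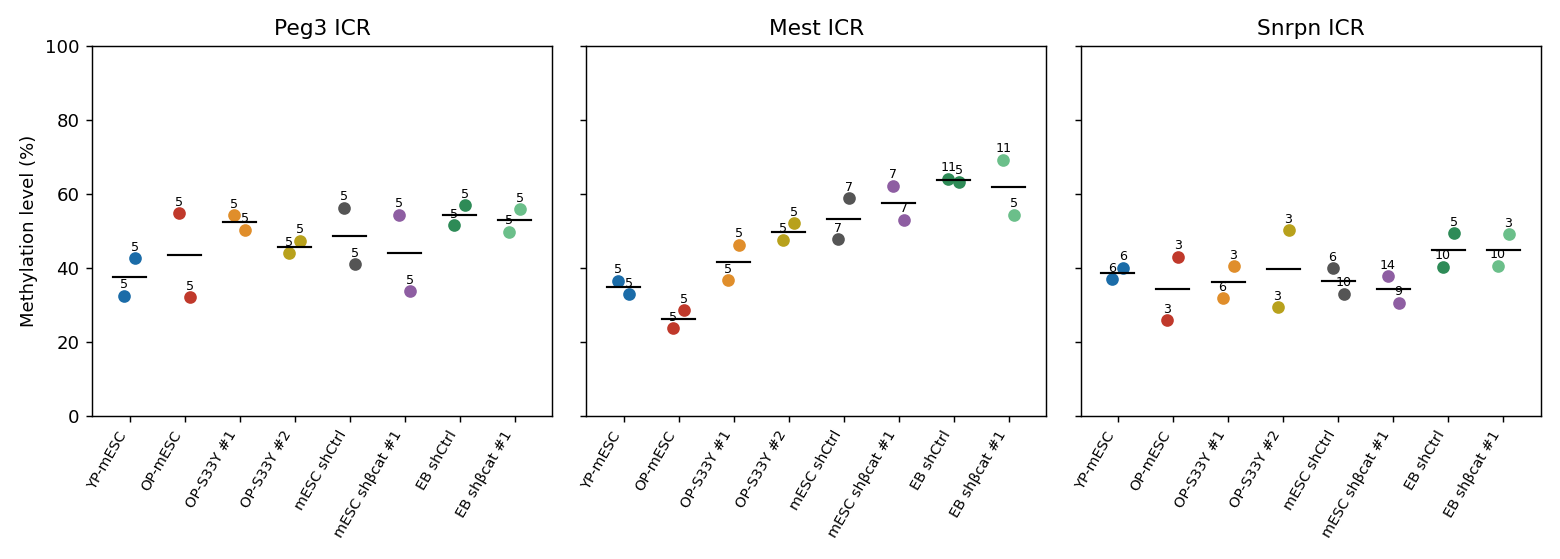
Methylation level in percent of the Peg3, Mest and Snrpn ICRs in the 8 conditions. Each point is 1 library, the number above it is its count of covered CpGs, and the line is the mean of the 2 replicates. The 2 OP-mESC libraries have the lowest levels at Mest, 23.6% and 28.5%, while at Peg3 they lie at 54.7% and 32.1%.

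The Mest ICR was the one that varied most between conditions. In OP-mESC replicates 1 and 2 it was 23.6% and 28.5% methylated, and in YP-mESC replicates 1 and 2 it was 36.5% and 32.8%. The groups did not overlap, and OP-mESCs were the lowest of the 8 conditions. With 2 libraries against 2, a lack of overlap gives no p below 0.33 in an exact permutation test. How many of the other ICRs did not overlap was not counted. The clones lay above OP-mESCs, where OP-S33Y #1 had 36.6% and 46.2% and OP-S33Y #2 had 47.6% and 52.0%. These 8 libraries share the same 5 CpGs, the stretch printed above as the Mest ICR, so their levels can be set side by side.

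Over those CpGs, summing their reads, OP-mESCs were 10.4 percentage points lower than YP-mESCs (95% confidence interval from -30.3 to 9.46). The difference did not pass the threshold (adjusted p = 0.434, quasi-binomial F test over the ICRs). In this comparison 4 of 11 testable ICRs passed, or 36.4%, all of them lower in OP-mESCs. The 8 other testable ICRs had a median difference of -22.8 points and a range from -62.6 to 10.8. The median of Peg3, Mest and Snrpn was -2.23 points and that of all 11 was -10.4, and whether the 3 ICRs differ from the others was not tested.

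OP-S33Y #2 and OP-mESCs differed at the Mest ICR. Methylation was 24.0 points higher in the clone, 49.3% against 25.4% of the summed reads (95% confidence interval from 9.89 to 38.0 points, adjusted p = 0.00449, quasi-binomial F test). This was the one call among 30 tests of the 3 ICRs in 10 comparisons. In the same comparison 6 of 11 ICRs passed, or 54.5%, all of them higher in the clone, and the 8 other ICRs had a median difference of 36.7 points. The call rests on 2 libraries per group. It was lost without OP-S33Y #2 replicate 1, where the F test gave an adjusted p of 0.0897 for 25.9 points. It was also lost without OP-S33Y #2 replicate 2, where the F test gave an adjusted p of 0.105 for 22.0 points.

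OP-S33Y #1 was 15.7 points above OP-mESCs at Mest (95% confidence interval from -2.10 to 33.5). It did not pass (adjusted p = 0.123, quasi-binomial F test), where 36.4% of the 11 ICRs tested did. Against YP-mESCs the clones were 5.28 points (interval from -15.4 to 26.0) and 13.6 points higher (interval from -2.04 to 29.2) for OP-S33Y #1 and #2, and neither passed. For OP-S33Y #1 the difference was 10.1 points without its replicate 1 and 0.419 without its replicate 2. The shares of ICRs called in those comparisons were 20% of 15 and 43.8% of 16. The comparisons share the YP-mESC or OP-mESC libraries and are not independent of each other.

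**Figure D2:**
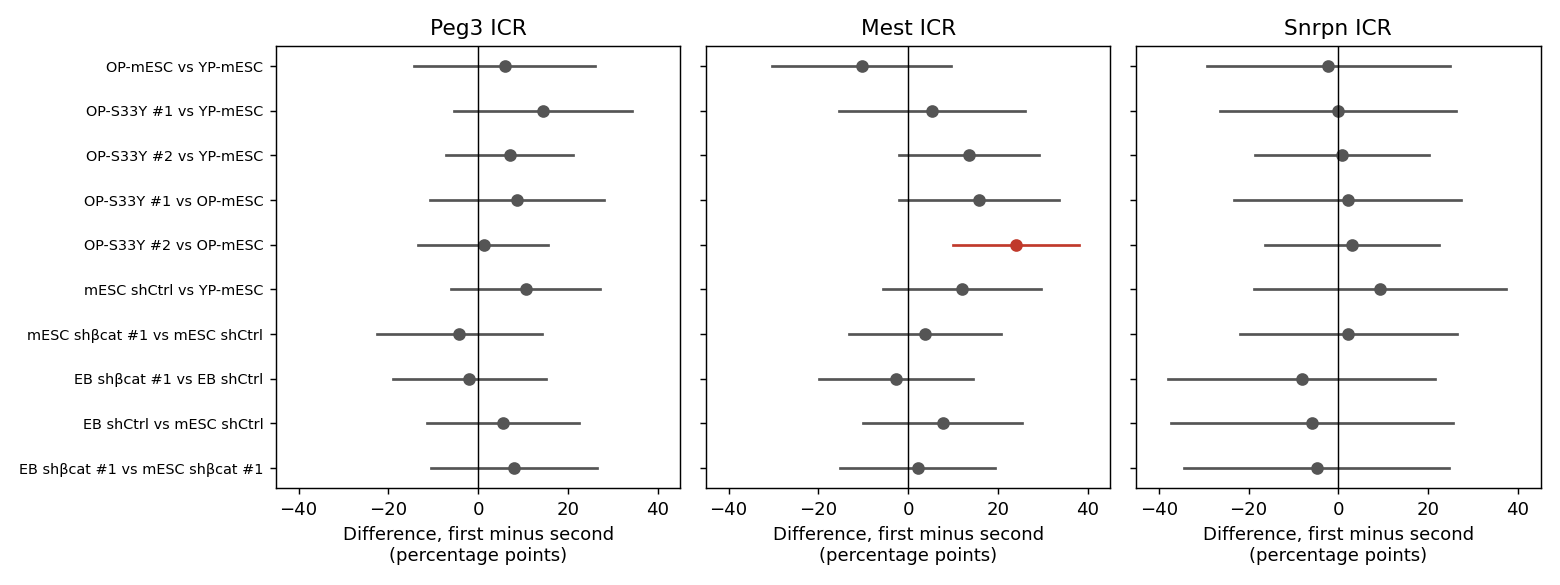
Difference in methylation, first condition minus second, in percentage points over the CpGs common to the 4 libraries of each comparison. Points are differences, bars are 95% confidence intervals, and red marks the difference that passed the threshold, Mest in OP-S33Y #2 against OP-mESCs with 24.0 points. All 10 intervals of Peg3 and all 10 of Snrpn include 0.

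A larger difference lay outside the Mest ICR, in the intronic stretch that begins at -2131 bp from its start. This stretch has 6 CpGs, and its level was 66.0% and 32.5% in YP-mESC replicates 1 and 2. In OP-mESC replicates 1 and 2 it was 22.4% and 11%. OP-mESCs were below both YP-mESC libraries, but the YP-mESC libraries lay far apart, with a mean of 49.2% ± 23.7 (SD, n = 2) against 16.7% ± 8.12 (SD, n = 2). OP-S33Y #1 had 44.9% and 63.5% while OP-S33Y #2 had 53.5% and 35.3%, so that every clone library lay above both OP-mESC libraries. How often other stretches of the genome show such separations was not counted. In mESCs with shCtrl it was 53.4% and 44.3%, in mESCs with shβcat #1 51.1% and 51.9%, in EBs with shCtrl 65.9% (4 of the CpGs) and 80.8% and in EBs with shβcat #1 61.0% and 61.4%.

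CpGs were also tested singly over the whole genome, and calling a CpG required a difference over 25 percentage points together with an adjusted p under 0.05. In OP-mESCs against YP-mESCs, 5 of the 21 CpGs tested at the 3 loci were called, all lower and all in the Mest stretch before the ICR, compared with 2.55% of 365703 CpGs in either direction. At the CpG within the hexamer, 30682811, the level was 75.7% and 34.3% in the YP-mESC libraries and 22.2% and 11.5% in the OP-mESC libraries. Its difference was -38.1 points (adjusted p = 0.00272, quasi-binomial chi-square test). That test used 1 overdispersion shared by all CpGs, 1.14 here, and so does not measure the spread between replicates at this CpG. For the ICRs of the same comparison, with reads summed over CpGs, the overdispersion was 7.65. The other 4 called CpGs fell by between 31.8 and 37.1 points. With between 17 and 37 reads on each called CpG in a library, these are mostly the same molecules and not separate measurements. Without YP-mESC replicate 1 or without OP-mESC replicate 2, 0 CpGs were called.

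The same stretch was higher in the clones than in OP-mESCs. In OP-S33Y #1, 6 CpGs were called higher and all 6 lay in this stretch, with differences between 32.5 and 42.8 points, compared with 2.5% of 379564 CpGs called genome-wide. The largest was again at 30682811, where the clone had 51.4% and 67.9% (adjusted p = 0.000275, quasi-binomial chi-square test). This p-value too rests on the overdispersion shared by all CpGs, 1.16 here. In OP-S33Y #2, 4 CpGs were called higher, compared with 0.761% of 382193 CpGs genome-wide. Of these, 2 lay in the same stretch, with 33.5 and 35.4 points, and 2 in the Mest ICR, with 27.3 points at 30689288 and 35.2 points at 30689323. The 6 calls of OP-S33Y #1 became 0 without its replicate 2 or without OP-mESC replicate 2. The 4 calls of OP-S33Y #2 became 0 without its replicate 1 or without OP-mESC replicate 1, 1 without its replicate 2 and 2 without OP-mESC replicate 2. Against YP-mESCs neither clone had a call at the 3 loci, where 0.315% of 611663 CpGs were called for OP-S33Y #1 and 0.864% of 622035 for OP-S33Y #2.

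**Figure D3:**
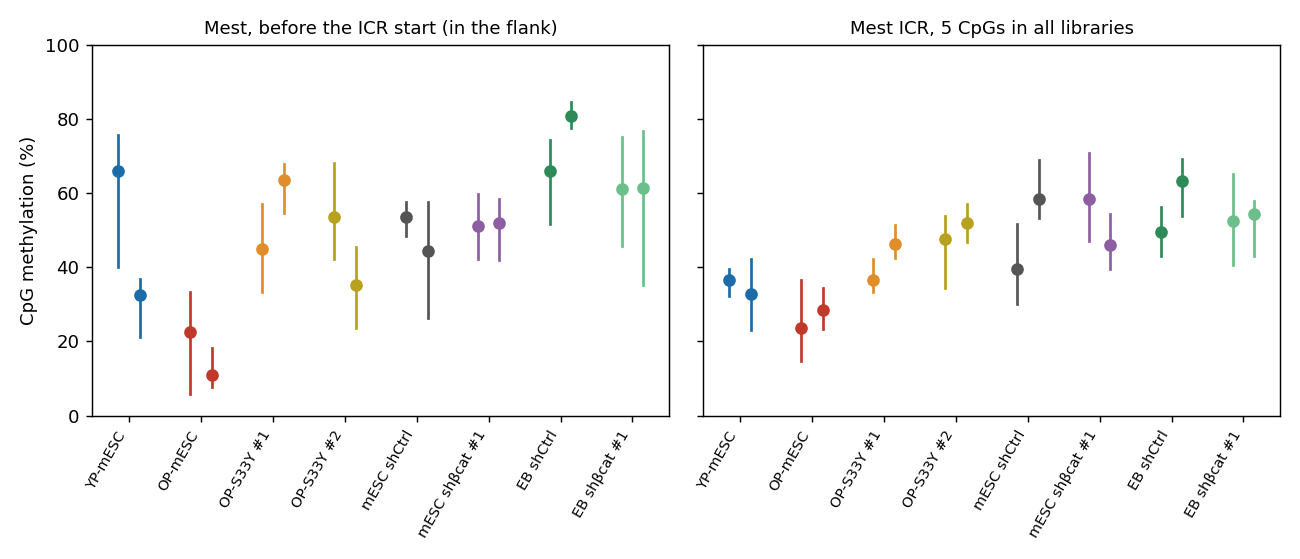
CpG methylation in percent at the Mest locus, before the ICR start (left) and at the 5 ICR CpGs covered in all libraries (right). Points are the mean over the CpGs of 1 library and bars run from the lowest to the highest of those CpGs, so they show the spread between CpGs and not between replicates. The OP-mESC points, at 22.4% and 11% on the left, lie below those of the other conditions.

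Elsewhere at Mest the covered CpGs were more methylated, except for 2 CpGs read in 1 library. A group of CpGs that begins at -7740 bp from the ICR start was between 74.1% and 97.8% methylated in the 15 libraries with at least 2 of them. Inside the ICR, 6 CpGs starting 362 bp from its start were read only in the shRNA experiment. Of these, 2 were read in 6 libraries and the other 4 in 2 libraries, EB shCtrl replicate 1 and EB shβcat #1 replicate 1. The mean over the CpGs read was between 60% and 83.3% in those 6 libraries, with single CpGs up to 92.3%. In Mest coding exons 7897 bp from the ICR start, 7 libraries of the shRNA experiment lay between 75.7% and 93.6%. Only mESC shCtrl replicate 2 covered 2 CpGs in a coding exon 7672 bp from the ICR start, at 36.4% on 22 reads. In OP-mESCs the outer stretch before the ICR had 75.0% and 86.1%, compared with 92.3% and 89.5% in YP-mESCs. In EBs with shβcat #1 it had 74.1% and 87.4%, on 2 and 4 CpGs, compared with 95.3% in both EB libraries with shCtrl, on 2 and 5 CpGs. At the 2 CpGs read in each of these libraries, replicate 2 had 92.9% and 88.6% with shCtrl and 77.4% and 81.1% with shβcat #1. No CpG of this outer stretch was called in either comparison.

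**Figure D4:**
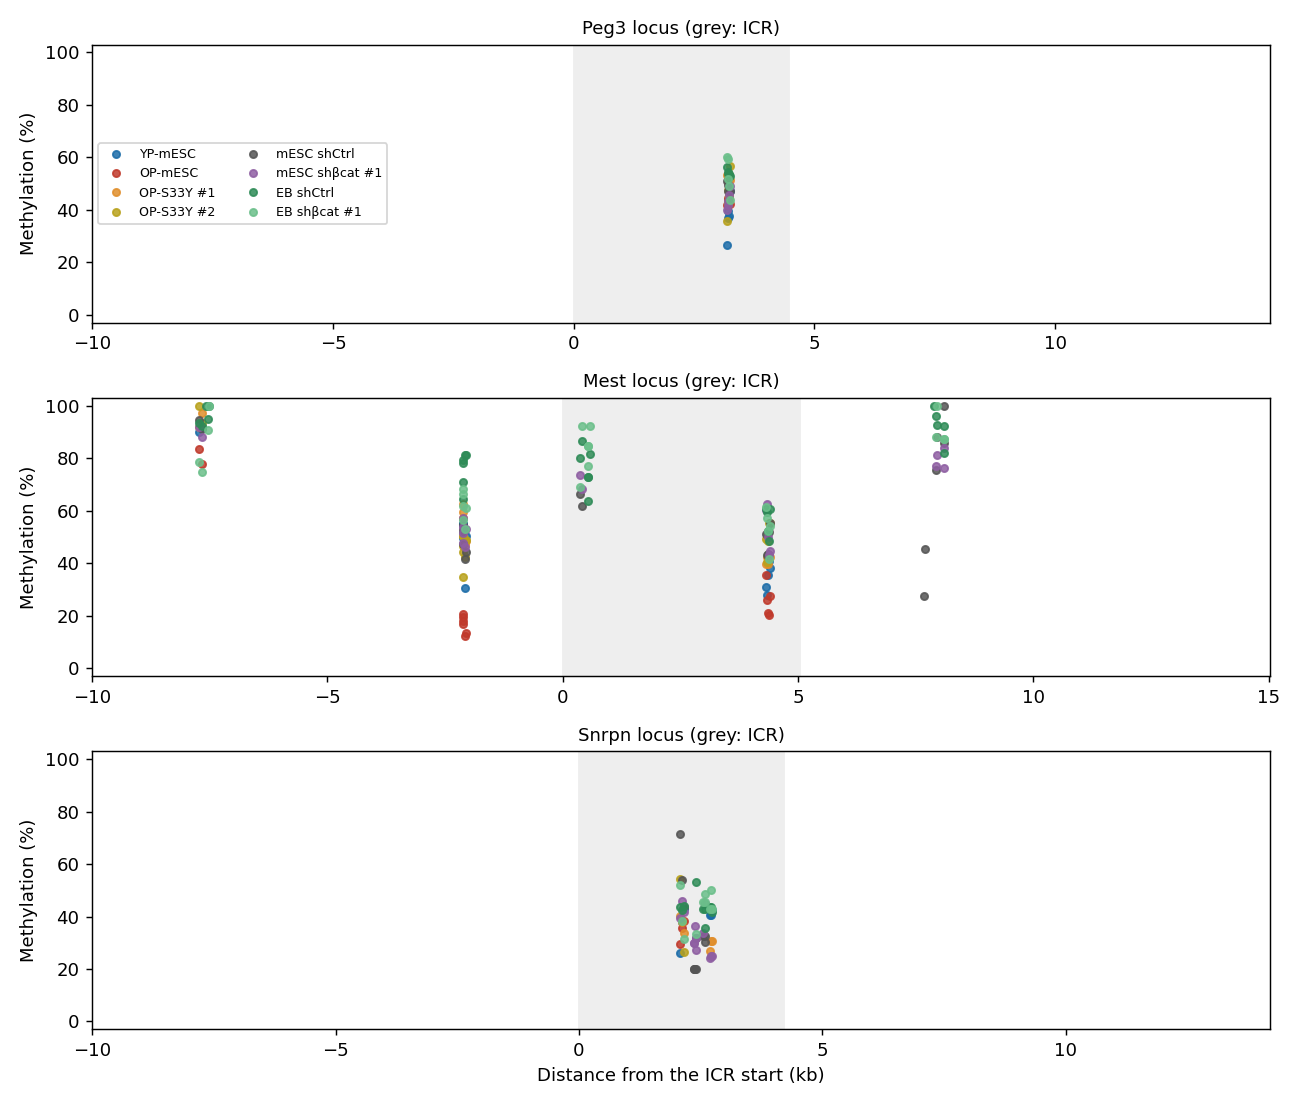
Methylation in percent of each covered CpG against its distance in kb from the ICR start, with the ICR in grey. Each point is the mean of the 2 replicates of a condition, or the value of 1 replicate where the other did not cover the CpG. Peg3 and Snrpn have points only inside the ICR, whereas Mest has 18 covered CpGs in its flanks.

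The Peg3 ICR showed no difference that passed the test. In YP-mESC replicates 1 and 2 it was 32.4% and 42.6% methylated, and in OP-mESC replicates 1 and 2 54.7% and 32.1%. The OP-mESC libraries lay on either side of both YP-mESC libraries. OP-S33Y #1 had 54.2% and 50.3% and OP-S33Y #2 had 44.0% and 47.3%, which places all 4 clone libraries above both YP-mESC libraries. How many of the other ICRs showed the same was not counted. In mESCs with shCtrl the values were 56.3% and 41.0%, in mESCs with shβcat #1 54.3% and 33.6%, in EBs with shCtrl 51.4% and 56.9% and in EBs with shβcat #1 49.7% and 55.9%.

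The differences at Peg3 were 5.87 points for OP-mESCs against YP-mESCs (95% confidence interval from -14.2 to 26.0), and 14.4 points (interval from -5.41 to 34.2) and 7.05 points (interval from -7.12 to 21.2) for OP-S33Y #1 and #2 against YP-mESCs. Without YP-mESC replicate 1 the clone differences were 9.03 and 1.67 points, and without YP-mESC replicate 2 they were 19.8 and 12.4. Against OP-mESCs they were 8.54 points (interval from -10.8 to 27.9) and 1.19 points (interval from -13.3 to 15.6). None of the 10 comparisons passed or had an unadjusted p under 0.05 in the quasi-binomial F test, while Fisher's exact test on reads summed over replicates, which takes no account of their spread, called 4. Without OP-mESC replicate 1, Peg3 passed in OP-S33Y #2 against OP-mESCs, at 12.6 points (adjusted p = 0.0429, quasi-binomial F test). The intervals of the 10 comparisons had a half-width between 14.2 and 20.1 points. No single CpG at Peg3 was called in any comparison.

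The 5 CpGs of Peg3 moved together in some libraries and apart in others. In OP-mESC replicate 1 they lay between 52.6% and 55.9% and in OP-mESC replicate 2 between 31.0% and 33.3%. In OP-S33Y #2 replicate 1 they ran from 25% to 65.2% and in YP-mESC replicate 2 from 22.2% to 60%. The CpG at 6682973 was the lowest and the one at 6683038 the highest in those 2 libraries, at opposite ends of the stretch and with fewer reads than the 3 CpGs between them.

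At the Snrpn ICR no comparison passed the test. Its level was 36.9% and 40% in the YP-mESC libraries, on 6 CpGs each, and 25.8% and 42.9% in OP-mESC replicates 1 and 2, on 3 CpGs each. OP-S33Y #1 had 31.8% and 40.4% and OP-S33Y #2 had 29.3% and 50.1%. In mESCs with shCtrl the level was 39.9% and 33%, in mESCs with shβcat #1 37.7% and 30.5%, in EBs with shCtrl 40.3% and 49.3% and in EBs with shβcat #1 40.5% and 49.0%. The EB libraries lay above the mESC libraries with the same shRNA, without overlap, but these levels rest on different CpGs in different libraries. Such a lack of overlap was not counted at the other ICRs. In the stretch printed above, EBs with shCtrl lay below mESCs with shCtrl, at 42.6% and 44.5% on 3 and 2 CpGs. With shβcat #1, EBs had 32.1% and 49.0% there and mESCs 45.2% and 39.3%. In that stretch mESCs with shCtrl had 51.1% and 56.3%, on 3 and 2 CpGs. YP-mESCs had 33.8% and 37.4%, on 3 CpGs each. At the 2 CpGs covered in all libraries, mESCs with shCtrl had 50.0% and 57.7% (67149488) and 32.0% and 55.0% (67149536). YP-mESCs had 35.1% and 40.4% at 67149488 and 37.8% and 48.3% at 67149536, where the 2 conditions overlapped. In the second covered stretch of this ICR mESCs with shCtrl had 28.6% and 27.1% and YP-mESCs 40% and 42.5%. No CpG of that stretch was read in both conditions, so their order there cannot be told.

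Over the CpGs common to 4 libraries, between 2 and 5, the Snrpn differences ranged from -8.16 to 9.37 points, and the half-width of their intervals from 19.3 to 31.4. For OP-mESCs against YP-mESCs the difference was -2.23 points (interval from -29.2 to 24.8). No comparison of Snrpn passed or had an unadjusted p under 0.05, and Fisher's exact test called 0 of 10. At the hexamer CpG 67149488 the level was 35.1% and 40.4% in YP-mESCs, 29.3% and 41.8% in OP-mESCs, then 38.5% and 37.1% for clone OP-S33Y #1 and 30% and 46.4% for clone OP-S33Y #2, and it was not called in any comparison. A second group of up to 11 CpGs, which begins 2359 bp from the ICR start and extends over the transcript start, was read in 10 libraries and lay between 26.1% and 52.6%. Neither OP-mESC library covered it.

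Knockdown of β-catenin left all 3 ICRs without a call. In mESCs shβcat #1 differed from shCtrl by -4.28 points at Peg3 (95% confidence interval from -22.6 to 14.1), 3.73 at Mest (interval from -13.1 to 20.6) and 2.15 at Snrpn (interval from -22.0 to 26.3), and 0 of 19 ICRs passed, or 0%, in the quasi-binomial F test. In EBs the differences were -1.97 points at Peg3 (interval from -18.9 to 15.0), -2.68 at Mest (interval from -19.8 to 14.5) and -8.16 at Snrpn (interval from -37.9 to 21.6), and 5.26% of 19 ICRs passed. The difference between the stages was tested as an interaction, and its adjusted p was 0.951 at Peg3, 0.941 at Mest and 0.975 at Snrpn (quasi-binomial F test over 19 ICRs, of which 5.26% passed). CpG calls at the 3 loci were 0 in both stages, compared with 0.111% of 915436 CpGs in mESCs and 0.0883% of 824284 in EBs.

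Between mESCs and EBs no difference passed the test. With shCtrl the differences were 5.59 points at Peg3 (interval from -11.3 to 22.4), 7.62 at Mest (interval from -10.1 to 25.4) and -5.83 at Snrpn (interval from -37.2 to 25.6), where 5.26% of 19 ICRs passed. With shβcat #1 they were 7.90 points (interval from -10.6 to 26.4), 2.08 (interval from -15.3 to 19.4) and -4.83 (interval from -34.4 to 24.7), where 10.5% of 19 ICRs passed. The negative signs at Snrpn rest on 2 and 3 common CpGs, and with each library's own CpGs the differences were 5.76 points with shCtrl and 9.31 with shβcat #1. No CpG at the 3 loci was called, in a contrast in which 6.42% of 858530 CpGs with shCtrl and 6.6% of 863446 with shβcat #1 were. The Mest stretch before the ICR, at 73.4% ± 10.5 (SD, n = 2) in EBs with shCtrl and 48.8% ± 6.45 (SD, n = 2) in mESCs with shCtrl, had no called CpG. Of its CpGs, 30682801 (adjusted p = 0.0171, quasi-binomial chi-square test) and 30682811 (24.7 points, adjusted p = 0.0166, quasi-binomial chi-square test) missed only the minimum difference of 25 points. Without EB shCtrl replicate 1, 3 CpGs were called at the loci, and without mESC shCtrl replicate 2, 1 was.

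Control-shRNA mESCs were also compared with YP-mESCs, which were not transduced. The differences were 10.6 points at Peg3 (interval from -6.10 to 27.2), 12 at Mest (interval from -5.71 to 29.6) and 9.37 at Snrpn (interval from -18.7 to 37.4), and none passed, whereas 41.2% of 17 ICRs did, all higher with shCtrl. Single libraries moved these values. Without mESC shCtrl replicate 1 they were 3.0 points at Peg3, 21.3 at Mest and 16.7 at Snrpn, and without mESC shCtrl replicate 2 they were 18.1 at Peg3 and 2.65 at Mest. Without YP-mESC replicate 1 they were 5.19 at Peg3 and 5.75 at Snrpn, and without YP-mESC replicate 2 the Peg3 value was 15.9. No CpG at the loci was called, where 2.94% of 633603 were. In the 7 comparisons without a call at the 3 loci, 16 of 151 CpG tests had an unadjusted p under 0.05 in the quasi-binomial test and Fisher's exact test called 0. With 2 libraries against 2, an exact permutation test cannot give a p below 0.33, so these tests rest on the spread shared by ICRs or by CpGs.

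Ordered by their means, the conditions were hard to tell apart. At Peg3 the means ran from 54.2% ± 3.89 (SD, n = 2) in EBs with shCtrl to 37.5% ± 7.18 (SD, n = 2) in YP-mESCs, and in all 7 pairs of neighbours in that order the replicates overlapped. At Snrpn they ran from 44.8% ± 6.42 (SD, n = 2) in EBs with shCtrl to 34.1% ± 5.13 (SD, n = 2) in mESCs with shβcat #1, with all 7 pairs overlapping. This order too depends on the CpGs read. In the Snrpn stretch printed above mESCs with shCtrl were highest, at 53.7% ± 3.68 (SD, n = 2), and OP-mESCs lowest, at 34.4% ± 12.1 (SD, n = 2). Of its 3 CpGs only 2 were covered in all libraries, so those means also rest on unlike CpGs. At these 2, OP-S33Y #2 and OP-mESCs had means of 38.2% and 35.5% (67149488) and of 26.6% and 38.1% (67149536). OP-mESCs were thus not the lowest at 67149536. At Mest they ran from 63.7% ± 0.609 (SD, n = 2) in EBs with shCtrl to 26.1% ± 3.50 (SD, n = 2) in OP-mESCs, and 4 of 7 pairs overlapped. The 3 that did not were OP-S33Y #2 above OP-S33Y #1, OP-S33Y #1 above YP-mESCs and YP-mESCs above OP-mESCs. Such pairs were not counted at the other ICRs of the list. Part of the Mest order comes with the CpGs read, since over the 5 CpGs covered in all libraries EBs with shCtrl had 56.4% and not 63.7%.

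Compared over the condition means with the other ICRs of the list, the pattern of Mest was most like those of Commd1 (Pearson's r = 0.934 over 8 conditions) and Inpp5f (r = 0.934 over 7 conditions). That of Peg3 was most like Igf2r (r = 0.721 over 7 conditions) and Meg3 (r = 0.704 over 8 conditions), and that of Snrpn like Meg3 (r = 0.903 over 8 conditions) and Mest (r = 0.604 over 8 conditions). These values are descriptions, chosen as the 2 largest of 16 for each ICR, and the points share libraries and their depth. The means also rest on each library's own CpGs, which differ between libraries at Mest and Snrpn.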

How the data were processed

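Genomic DNA of 16 E14 libraries, 2 per condition, was prepared with the NuGEN Ovation RRBS Methyl-Seq system. Per the submitters' processing notes, reads were handled with CASAVA 1.8.2, Trim Galore 0.2.8 and Bismark 0.7.9 on mm9. The authors deposited, for each cytosine of a CpG with at least 10 reads, its read count and, as a percent of these reads, the methylated share, unnormalized and without pooling replicates. The restriction enzyme and the treatment of duplicate reads were not given in the sources used here. A cytosine with under 10 reads is absent from a file, so coverage differs between libraries and a CpG can have reads of 1 strand only. A CpG with under 10 reads on each strand therefore counts as not covered.

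Here, methylated reads were recovered from the counts and percentages, and the strands of a CpG were summed where both were present. The level of an ICR is the mean percentage of its covered CpGs. Differences used reads summed over the CpGs common to the 4 libraries of a comparison (at least 2) and a quasi-binomial F test with 1 overdispersion shared by the ICRs. Confidence intervals are at 95%. Single CpGs were tested over the genome with a quasi-binomial chi-square test, with 1 overdispersion shared by all CpGs. A CpG was called where the difference was over 25 points with an adjusted p under 0.05. All adjustment was Benjamini-Hochberg, over all ICRs or all CpGs tested. CpGs under 200 bp apart were described as 1 stretch. Tests were two-sided, and the scripts were tested on simulated data. The labels do not say whether replicates came from separate cultures, whereas the study's text calls them biological. The p-values therefore measure a spread between these samples, shared over ICRs or over CpGs.

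Named items were the 3 ICRs, the genes annotated within them or their 10 kb flanks, the 2 ICRs most like each in their condition means, and the CpGs covered in the most libraries. CpGs called in a test, and the stretch before the Mest ICR, were singled out after their values were seen. The members and lists were chosen with earlier results of these data known. Alternatives were a minimum of 20 reads, at least 5 common CpGs, cytosines taken singly, a cap at the 99.9th percentile of coverage, each CpG counted once, each library's own CpGs, Fisher's exact test, 1 overdispersion over all conditions, adjusted p alone, a replicate block and leaving out each library. Dividing reads by the number of CpGs was added after seeing the data. Figures were drawn with matplotlib 3.10.9, and tests used scipy 1.17.1 with numba 0.67.0 under Python 3.11.15, pandas 2.3.3 and numpy 2.4.6.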

Additional observations from a re-analysis of the deposited data

How the results depend on the processing

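Fisher's exact test on reads summed over replicates, which takes no account of their spread, additionally called Mest in OP-mESCs against YP-mESCs (-10.4 points), OP-S33Y #2 against YP-mESCs (13.6), OP-S33Y #1 against OP-mESCs (15.7), mESC shCtrl against YP-mESCs (12) and EB shCtrl against mESC shCtrl (7.62). It also called Peg3 in OP-S33Y #1 (14.4) and #2 (7.05) against YP-mESCs, OP-S33Y #1 against OP-mESCs (8.54) and mESC shCtrl against YP-mESCs (10.6). The sign changed with 20 reads per CpG for Snrpn in OP-S33Y #2 against YP-mESCs (-5.89), OP-S33Y #1 against OP-mESCs (-0.109) and OP-S33Y #2 against OP-mESCs (-2.5), and for Mest in mESC shβcat #1 against shCtrl (-1.83). With each library's own CpGs it changed for Snrpn in OP-S33Y #2 against YP-mESCs (-0.64), mESC shβcat #1 against shCtrl (-4.59), EB against mESC shCtrl (5.76) and EB against mESC shβcat #1 (9.31). The cause was not tested. With 20 reads the called CpGs became 0 in OP-mESCs against YP-mESCs, 0 in OP-S33Y #1 against OP-mESCs and 2 in OP-S33Y #2 against OP-mESCs, and by adjusted p alone 2 were called in EB against mESC shCtrl.

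Leaving out 1 library moved the difference of Peg3 from -5.56 to 17.3 for OP-mESC against YP-mESC, from -2.89 to 20 for OP-S33Y #1 against OP-mESC, from -10.2 to 12.6 for OP-S33Y #2 against OP-mESC, from -14.0 to 5.48 for mESC shβcat #1 against mESC shCtrl, from -5.63 to 1.7 for EB shβcat #1 against EB shCtrl, from -1.98 to 13.2 for EB shCtrl against mESC shCtrl and from -1.86 to 17.7 for EB shβcat #1 against mESC shβcat #1. Leaving out 1 library moved the difference of Mest from 21.7 to 26.2 for OP-S33Y #2 against OP-mESC, from -4.12 to 11.6 for mESC shβcat #1 against mESC shCtrl, from -9.38 to 4.02 for EB shβcat #1 against EB shCtrl, from -1.69 to 16.9 for EB shCtrl against mESC shCtrl and from -4.22 to 8.39 for EB shβcat #1 against mESC shβcat #1. Leaving out 1 library moved the difference of Snrpn from -10.5 to 6.0 for OP-mESC against YP-mESC, from -6.63 to 2.43 for OP-S33Y #1 against YP-mESC, from -8.95 to 10.5 for OP-S33Y #2 against YP-mESC, from -6.12 to 10.3 for OP-S33Y #1 against OP-mESC, from -6.72 to 12.7 for OP-S33Y #2 against OP-mESC, from -11.0 to 15.3 for mESC shβcat #1 against mESC shCtrl, from -9.64 to 1.6 for EB shβcat #1 against EB shCtrl, from -13.2 to 1.52 for EB shCtrl against mESC shCtrl and from -7.83 to 5.29 for EB shβcat #1 against mESC shβcat #1. With no change of sign, it moved from 9.03 to 19.8 and from 1.67 to 12.4 at Peg3 for OP-S33Y #1 and #2 against YP-mESCs, from 0.419 to 10.1 at Mest for OP-S33Y #1 against YP-mESCs, and for mESC shCtrl against YP-mESCs from 3.0 to 18.1 at Peg3, 2.65 to 21.3 at Mest and 5.75 to 16.7 at Snrpn. The knockdown effect in EBs minus that in mESCs moved from -7.45 to 12.1 at Peg3, -14.8 to 3.77 at Mest and -12.7 to 6.81 at Snrpn. Called CpGs ranged from 0 to 5 in OP-mESCs against YP-mESCs, 0 to 6 in OP-S33Y #1 and 0 to 2 in OP-S33Y #2 against OP-mESCs, 0 to 3 in EB against mESC shCtrl and 0 to 1 in EB against mESC shβcat #1. No difference was past the threshold in the setting where its sign had changed. A comparison of 2 libraries with 1 takes the single library to vary like the others.

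The labels give same-numbered replicates nothing in common but a number. Correlations of their deviations ran from -0.025 to 0.027 across 329078 CpGs. Across ICRs, between 11 and 19 per comparison, they ran from -0.35 to 0.59. Whether same-numbered replicates shared a preparation was not tested. With the replicate block the calls of OP-S33Y #2 against OP-mESCs became 2 CpGs, Mest remained called there (adjusted p = 0.00752, quasi-binomial F test), and no other ICR call changed. Dividing reads by the number of CpGs changed no ICR call. At least 5 common CpGs gave a value for 21 of 30 differences, and 20 reads for 26. Of 120 alternative condition levels that kept both libraries, 9 moved by more than the replicate spread. The comparisons rest on between 2 and 7 common CpGs, and the smallest half-width of an interval was 14.1 points.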
